A study of Mus musculus with 4 samples.

Results

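The cells described here are CD4 T cells of mouse mammary tumours without a transcript of Foxp3, which defines regulatory T cells, or of Il4, Il5, Il13 or Il1rl1, which mark type 2 helper cells. They are called effector CD4 cells below, although some carried other genes of those lineages, such as Ikzf2, Il2ra and Gata3. Some also carried memory genes such as Tcf7 and S1pr1, so the name stands for the rule and not for a measured function. They were chosen by transcripts alone, counted as unique molecular identifiers (UMIs): at least 1 UMI of Cd3d, Cd3e or Cd3g, at least 1 of Cd4, none of Foxp3, Trdc, Cd8a, Cd8b1, Il4, Il5, Il13 or Il1rl1, at most 1 of Lef1, Ccr7 and Dapl1 together, fewer than 2 of Mki67 and Top2a together, and fewer than 3 of Lyz2. The rule took 484 of 14555 cells: 101 and 114 in WT replicates 1 and 2, and 94 and 175 in IL1α-/- replicates 1 and 2. The tumours grew from HER2+ H605 mammary tumour cells placed in the mammary pad of FVB/NJ mice aged 6 to 8 weeks, which were WT or IL1α-/-, with 2 tumours per genotype, all collected on day 14. All hosts received the same tumour line, so the genotypes differ in the host and not, per the labels, in the injected cells. The labels describe 2 pairs of tumours collected on separate days, digested with collagenase and hyaluronidase at 37 degrees and enriched for live cells before 10x 3' capture. They do not say which tumours formed a pair, nor whether a library held 1 animal. With 2 libraries per genotype, p-values measure the spread between these libraries only.

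CD4 T cells recognise peptides on class II molecules and then help or restrain other immune cells. CD40 ligand, encoded by Cd40lg, is the surface protein through which helper cells license dendritic cells and B cells, and ICOS and CTLA-4 are receptors of the CD28 family, the first costimulatory and the second inhibitory. Interleukin 1α is a cytokine released by stressed or dying cells and by myeloid cells, and signals through IL1R1. The study asked what host-derived interleukin 1α does to the immune cells of the tumour.

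The label was held up against transcripts that the rule did not use. A T cell receptor constant transcript (Trac, Trbc1 or Trbc2) was present in 95.0% and 99.1% of the cells from WT replicates 1 and 2, and in 84.0% and 96.0% of those from IL1α-/- replicates 1 and 2. The lowest share belonged to the shallowest library: median UMIs per cell were 2329 and 3325.5 in the WT libraries and 1078 and 2357 in the IL1α-/- libraries. To compare detection at 1 depth, cells with at least 1000 UMIs were thinned to that number, which kept 96 of 101 and 112 of 114 WT cells and 56 of 94 and 169 of 175 IL1α-/- cells. Among these, Cd40lg was detected in 9.38% and 8.04% of WT cells and in 14.3% and 10.7% of IL1α-/- cells, against 0 UMIs in the thinned Lyz2 cells of any tumour, which are myeloid and serve as the background. Unthinned, Cd40lg was seen in 17.8% and 20.2% of WT cells and 15.96% and 21.1% of IL1α-/- cells. Most cells lacked a Cd40lg UMI, so the marker describes the population on average rather than cell by cell. Subset cytokines were scarce: Il17a gave 0, 0, 2 and 1 UMIs in the order WT replicates 1 and 2, IL1α-/- replicates 1 and 2, and Il21 gave 0, 4, 3 and 7. Il1a itself had no UMI in any of the 484 cells, which allows a share of up to 0.620% over all of them. That limit counts cells of IL1α-/- hosts, and it is looser for the 101 and 114 WT cells alone. In the barcodes of at most 100 UMIs, which hold free RNA, Il1a gave 6 and 3 UMIs in the WT tumours and 0 in both IL1α-/- tumours.

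Some cells stood close to the limits of the rule or carried transcripts of other cell types. Exactly 1 Cd4 UMI supported 69, 69, 73 and 105 of the cells, in that same order of libraries. Just outside the limits, with a single UMI of a type 2 gene, stood 32, 23, 3 and 24 cells, and a single Foxp3 UMI kept out 25, 33, 1 and 8. As mixed cells were counted 3, 3, 2 and 1 cells with 5 or more UMIs of class II or fibroblast genes, and 1 cell of WT replicate 1 held 537 fibroblast UMIs. Summed over the 10 fibroblast markers, the level was 3956 CPM (counts scaled to the same library total) in WT replicate 1 and 99.04, 72.6 and 278 CPM in WT replicate 2 and IL1α-/- replicates 1 and 2. The 20 macrophage markers summed to 1006, 847, 1215 and 241 CPM. Results below are therefore given with all cells and, where it matters, without the 9 mixed ones, a choice made after the data were seen.

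Effector CD4 cells made up a larger share of the CD4 compartment in the IL1α-/- tumours. Of all CD3+ Cd4+ cells they were 27.1% (95% Clopper-Pearson interval 22.6 to 31.9) in WT replicate 1 and 28.4% (24.1 to 33.1) in WT replicate 2. The same share was 73.4% (64.9 to 80.9) in IL1α-/- replicate 1 and 56.1% (50.4 to 61.7) in IL1α-/- replicate 2. Both IL1α-/- tumours lay above both WT tumours, 64.8% ± 12.3 against 27.8% ± 0.955 (SD, n = 2 each), and the two-sided exact permutation test gave p = 0.333, the smallest value that 2 against 2 allows. Because the rule asks for the absence of transcripts, shallow cells enter it more easily: among cells of at least 1000 UMIs thinned to that number (145 and 142 CD3+ Cd4+ cells in WT, 64 and 156 in IL1α-/- tumours) the shares were 51.0% and 55.6% in WT and 76.6% and 75.0% in IL1α-/- tumours, a difference of 22.4 points in place of 37.0. The order of the genotypes was the same at that depth, with a smaller gap.

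Foxp3+ cells and cells with type 2 transcripts took smaller shares in the IL1α-/- tumours. Foxp3+ cells were 14.5% ± 2.73 of CD3+ Cd4+ cells in WT and 4.61% ± 2.10 in IL1α-/- tumours, and cells with type 2 transcripts were 32.6% ± 2.03 and 21.5% ± 7.21 (SD, n = 2 each). Neither pair of groups overlapped, and each exact permutation test gave p = 0.333. Naive-like cells, with more than 1 UMI of Lef1, Ccr7 and Dapl1, did overlap. They were 11.3% and 3.99% in WT and 3.91% and 4.81% in IL1α-/- tumours. As a share of all cells in the tumour, effector CD4 cells were 2.52% and 2.85% in WT and 2.93% and 5.25% in IL1α-/- tumours. That difference of 1.40 points (exact permutation p = 0.333) rested on IL1α-/- replicate 2, without which it was 0.241 points. The genotypes overlapped in this share when cells were thinned to 1000 UMIs (2.04% and 2.16% in WT, 2.12% and 3.79% in IL1α-/- tumours). They also overlapped among cells of at least 1000 UMIs and with at least 2 Cd4 UMIs. With at most 10% mitochondrial UMIs or with doublet scores removed they did not overlap.

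**Figure D1:**
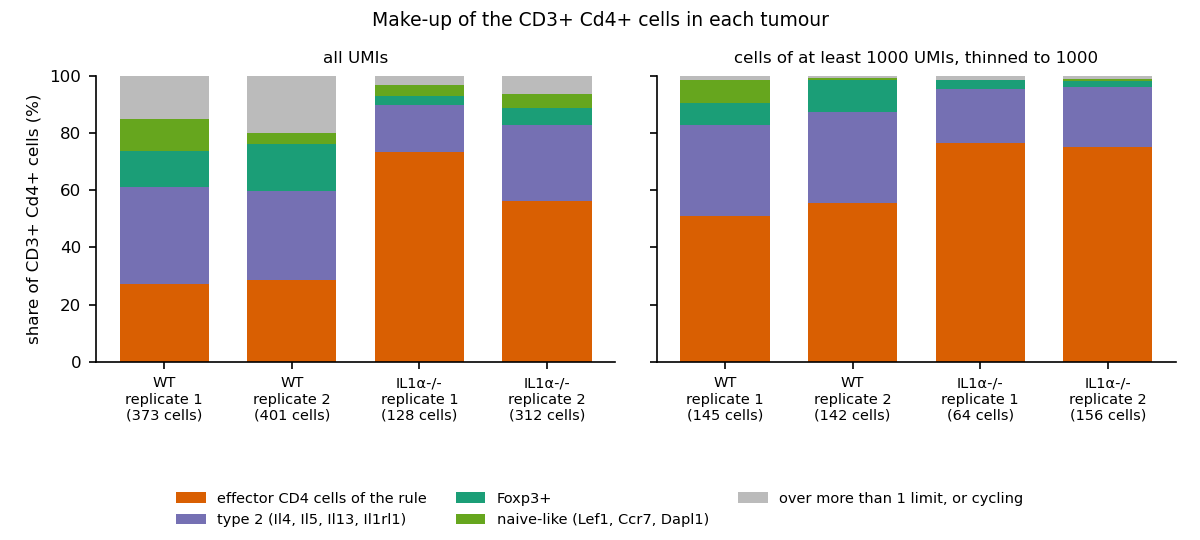
Share of CD3+ Cd4+ cells (%, vertical axis) in each of the 4 tumours, split by transcript rule into effector, Foxp3+, type 2, naive-like and remaining cells, with all UMIs on the left and with cells of at least 1000 UMIs thinned to that number on the right. The effector segment is 27.1% and 28.4% in WT against 73.4% and 56.1% in IL1α-/- tumours with all UMIs, and 51.0% and 55.6% against 76.6% and 75.0% at equal depth.

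Gene expression was compared between genotypes on the summed counts of the effector CD4 cells of each tumour. Of 4751 genes tested outside the rule, 69 passed at an adjusted p under 0.05 (1.45%), 54 of them higher in IL1α-/- hosts (1.14%) and 15 lower (0.316%). The smallest adjusted p among genes that rose belonged to Vps37b, Dusp5, Fosl2, Crem and Icos, and Ctla4, Ccl5 and Klrd1 rose as well. Those that fell held 4 ribosomal protein genes and genes such as Ramp1, Cd81, Capg and Pycard. Without the 9 mixed cells, 248 of 4461 genes passed (5.56%), among them all 68 of the original genes that could still be tested. Without IL1α-/- replicate 2, 68 genes passed, of which 33 were among the 66 original genes still tested. Leaving out WT replicate 1, WT replicate 2 or IL1α-/- replicate 1 instead gave 250, 183 and 192 genes.

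Free RNA moved with many of these genes. In the barcodes of at most 100 UMIs, 51 of the 54 genes that rose were higher in both IL1α-/- tumours than in both WT tumours (94.4%, against 40.2% of all genes tested), and 11 of the 15 that fell were lower in both (73.3%, against 16.1%). Of all 4751 genes tested, 2690 had a level in the effector CD4 cells above that in the free RNA of both IL1α-/- tumours. So did 40 of the 54 genes that rose. Klrd1, Ccl3, Ccl5, Klrc1, Klrc2, Nr4a1, Nr4a2, Fosb, Dgat1, Serpinb9, AA467197, mt-Atp8, Sertad1 and Hexim1 did not meet that mark, and neither did Xcl1, Cd81, Axl and mt-Atp6 in the WT tumours among genes that fell. The part of free RNA in these differences was not tested.

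Of the receptors of the CD28 family, Icos and Ctla4 rose. Icos (chromosome 1, 60977927 to 61000320, GRCm38) was at 382 and 422 CPM in WT and at 1369.7 and 1135 CPM in IL1α-/- cells. The IL1α-/- libraries lay well above the WT libraries and above their own free RNA, which held 156 and 185 CPM. The log2 difference was 1.63 ± 0.21 (SE, adjusted p = 0.00596). At 1000 UMIs per cell Icos was detected in 24.0% and 30.4% of WT cells and 62.5% and 60.9% of IL1α-/- cells, against at most 1.23% of Lyz2 cells. Unthinned, the shares were 39.6%, 53.5%, 65.96% and 77.7%. Both IL1α-/- tumours had higher shares of cells with an Icos UMI than both WT tumours, thinned or not.

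Ctla4, which lies beside Icos on chromosome 1 (60887000 to 60915832) and encodes the inhibitory receptor that competes with CD28, was at 351 and 248 CPM in WT and 862 and 842 CPM in IL1α-/- cells. The groups were far apart relative to their spread, with a log2 difference of 1.52 ± 0.23 (SE, adjusted p = 0.00986). Of 10 checkpoint receptor genes tested, Ctla4 was the 1 that passed. Pdcd1, the gene of the PD-1 receptor, was at 74.1 and 201 CPM in WT and 245 and 179.7 CPM in IL1α-/- cells, so that the groups overlapped (0.53 ± 0.40, adjusted p = 0.554). Leaving out WT replicate 2 brought the Pdcd1 difference to 1.44 with an adjusted p of 0.016. Cd40lg was at 89.6 and 91.2 CPM in WT and at 190.5 and 155 CPM in IL1α-/- cells, without overlap (groups did not overlap for 47.6% of all genes tested), and did not pass (0.89 ± 0.29, adjusted p = 0.164).

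Genes that T cells switch on after receptor signalling formed the second group. Nr4a3, an orphan nuclear receptor induced by T cell receptor signals, was at 152 and 96.4 CPM in WT and 589.6 and 497 CPM in IL1α-/- cells (log2 difference 2.14 ± 0.28, adjusted p = 0.00601). Its relatives Nr4a2 (1.98 ± 0.29, adjusted p = 0.00914) and Nr4a1 (1.41 ± 0.28, adjusted p = 0.0332) rose as well, so all 3 members of the family passed. Fosl2, a subunit of the AP-1 transcription factor, was at 195 and 146 CPM in WT and 698 and 682 CPM in IL1α-/- cells (2.03 ± 0.24, adjusted p = 0.00394). Fosb, another AP-1 subunit, was at 121 and 70.4 against 317 and 337 CPM (1.81 ± 0.30, adjusted p = 0.016). Crem, a cAMP-responsive factor, was at 117 and 119.9 against 544 and 465 CPM (2.07 ± 0.25, adjusted p = 0.00394). In each of these genes the genotypes did not overlap, which held for 47.6% of all genes tested. The WT libraries differed from each other most for Fosb and Nr4a3. Nr4a1 did not pass without WT replicate 2 (adjusted p = 0.0509).

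Regulators of signalling and protein sorting rose beside them. Vps37b, a component of the ESCRT-I sorting complex on chromosome 5 (124004641 to 124032270), had the lowest adjusted p of all: 269 and 255 CPM in WT against 1098 and 1216 CPM in IL1α-/- cells (2.15 ± 0.21, adjusted p = 0.00185). Dusp5, a phosphatase that acts on ERK in the nucleus, was at 226 and 214 against 807 and 888 CPM (1.95 ± 0.22, adjusted p = 0.00363). Tnfaip3 encodes A20, which restrains NF-kB signalling. It was at 483 and 328 CPM in WT and 862 and 1388 CPM in IL1α-/- cells (1.51 ± 0.27, adjusted p = 0.0222), with the highest level in IL1α-/- replicate 2. Rgs2, a brake on G protein signalling, was at 253 and 130.3 against 508 and 736 CPM (1.75 ± 0.32, adjusted p = 0.0222). Without IL1α-/- replicate 2, Tnfaip3 (adjusted p = 0.115) and Rgs2 (adjusted p = 0.0765) no longer passed. Vps37b, Dusp5, Fosl2, Crem, Icos, Nr4a3, Nr4a2, Fosb, Ctla4, Dennd4a, Zc3hav1, Klrd1 and Ccl5 passed in all 14 alternative analyses.

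Since AP-1 and cAMP-response genes rose together, the promoters of the genes that rose were read in RefSeq's GRCm38.p6 sequence, from 250 bases before to 50 after the gene start, on both strands. A promoter was found for 43 of the 54 genes, and none for Vps37b, Crem, Icos, Klrd1, Dgat1, Ccl5, Ccl4, mt-Atp8, Sik1, Gramd3 and Gem. TGANTCA, a looser form of the AP-1 motif with any base in the middle, occurred in 6 of them (13.95%). The backgrounds were 5.77% of the 3794 tested genes with a promoter and 8.97% of all 27025 genes of the table. The usual AP-1 site has C or G in the middle, whereas the windows of P2ry10 and Hilpda have A. That stricter site was not counted. The cAMP-response motif TGACGTCA occurred in 0 of the 43 and in 4.01% and 2.03% of the same 2 backgrounds. The 12 promoters found for the 15 genes that fell held neither. The 6 windows with TGANTCA are shown with the motif in capitals, on the strand named. The gene start is RefSeq's. By the GENCODE vM21 positions used elsewhere, the windows of Tnfaip3 and AA467197 lie inside the gene.
Tnfaip3, chr10:19015529-19015557, minus strand, motif 136 bases before the RefSeq gene start: aaatgcccaggTGACTCAcgcggggacac
P2ry10, chrX:107088382-107088410, plus strand, motif 99 bases before the RefSeq gene start: agtcttatctgTGAATCAaaatgctactc
AA467197, chr2:122637803-122637831, plus strand, motif 73 bases before the RefSeq gene start: cgcacgtgagtTGACTCAgtgcgacgcgg
Hilpda, chr6:29272487-29272515, plus strand, motif after the gene start: ctggactgcagTGAATCAaccgcgagccg
Eif3j1, chr2:122028595-122028623, plus strand, motif after the gene start: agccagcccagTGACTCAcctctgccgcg
Klrc2, chr6:129660538-129660566, minus strand, motif after the gene start: gacaagagtcaTGAGTCAcctgcttggaa
These matches describe letters in the window and are not measured binding sites. The windows read for Nr4a1, Nr4a2, Nr4a3, Fosl2, Fosb, Dusp5, Rgs2 and Ctla4 held no TGANTCA.

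Chemokines and natural killer receptors formed the third group. Ccl5, a chemokine that draws T cells and monocytes, was at 553 and 506 CPM in WT and 3429 and 1469 CPM in IL1α-/- cells (2.19 ± 0.33, adjusted p = 0.00914). The unthinned share of cells with a Ccl5 UMI was nearly alike, at 22.8% and 26.3% in WT and 27.7% and 26.9% in IL1α-/- libraries. Free RNA held 379 and 639 CPM of Ccl5 in WT and 3366 and 2432 CPM in IL1α-/- tumours, so that in 3 of the 4 tumours free RNA held nearly as much Ccl5 as the cells, or more. Ccl4 was at 144 and 136 against 408 and 308 CPM (1.32 ± 0.26, adjusted p = 0.0332), and only 5.26% to 8.00% of the cells of a library had a Ccl4 UMI. Ccl3 rested on 1, 2, 6 and 108 UMIs, the last in IL1α-/- replicate 2, where 1.71% of cells had a Ccl3 UMI (5.23 ± 0.75, adjusted p = 0.00766). Ccl3 was too low to be tested without that library. The chemokine result was thus carried by few cells for Ccl3 and Ccl4.

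Klrd1, which encodes CD94, the partner chain of the NKG2 receptors, was at 50.7 and 80.8 CPM in WT and 272 and 335 CPM in IL1α-/- cells (2.19 ± 0.31, adjusted p = 0.00766), with 163, 174, 417 and 364 CPM in free RNA. Klrc1 and Klrc2, which encode NKG2 chains, rose by 3.02 ± 0.46 (adjusted p = 0.00986) and 2.83 ± 0.55 (adjusted p = 0.0303). At 1000 UMIs per cell Klrd1 was detected in 3.13% and 4.46% of WT cells and 21.4% and 14.8% of IL1α-/- cells. Serpinb9, an inhibitor of granzyme B, was at 11.7 and 39.1 against 81.6 and 148 CPM (2.18 ± 0.45, adjusted p = 0.0369). Gzmb itself did not pass (2.80, adjusted p = 0.0506). Xcl1, a chemokine for cross-presenting dendritic cells, fell: 54 and 33 UMIs in WT against 2 and 0 in IL1α-/- cells (-5.02 ± 0.87, adjusted p = 0.0192). Klrc1, Klrc2 and Xcl1 also stand on the list of natural killer and innate lymphoid markers, whose 14 genes summed to 546, 336, 762 and 246 CPM. Without IL1α-/- replicate 2, Klrc2 (adjusted p = 0.296), Serpinb9 (0.397) and Xcl1 (0.0622) did not pass.

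Factors that set the lineage of helper cells gave a mixed picture. Stat4, which carries interleukin 12 signals, was at 74.1 and 39.1 CPM in WT and 154 and 187 CPM in IL1α-/- cells (1.68 ± 0.35, adjusted p = 0.0359). Rora, known from Th17 and tissue lymphocytes, was at 121 and 195 against 390.0 and 426 CPM (1.35 ± 0.28, adjusted p = 0.0346). Tbx21, which encodes T-bet, the main Th1 factor, was at 27.3 and 52.1 against 72.6 and 116 CPM and did not pass (1.29 ± 0.39, adjusted p = 0.128). Without the mixed cells the difference of Tbx21 by host genotype passed (adjusted p = 0.0452). Ifng, the Th1 cytokine, was at 35.1 and 175 CPM in WT and 218 and 182 CPM in IL1α-/- cells (0.82 ± 0.49, adjusted p = 0.445). WT replicate 1 was low for Ifng and the other 3 libraries were alike. Without WT replicate 2 the difference was 2.45 (adjusted p = 1.7e-05). Gata3, the Th2 factor, was at 207 and 188 against 109 and 130.4 CPM and did not pass (-0.68 ± 0.28, adjusted p = 0.266). Tcf7, a factor of memory and progenitor cells, was at 234 and 235 against 299 and 315 CPM (0.40 ± 0.24, adjusted p = 0.442). Without IL1α-/- replicate 2, Stat4 (adjusted p = 0.117) and Rora (0.108) did not pass, and without WT replicate 2 the difference of Stat4 by host genotype did not either (0.0591).

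Of the genes tied to low oxygen, Hif1a was at 281 and 295 CPM in WT and 553 and 709 CPM in IL1α-/- cells (1.15 ± 0.23, adjusted p = 0.0327). Hilpda, a lipid droplet protein gene that HIF-1 induces, was at 133 and 44.3 against 254 and 465 CPM (2.16 ± 0.44, adjusted p = 0.0332). Both were highest in IL1α-/- replicate 2, and neither passed without it (adjusted p = 0.212 and 0.108).

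The other genes that rose served signalling, metabolism and transcription. Il21r, the receptor for interleukin 21, was at 89.6 and 78.2 CPM in WT and 263 and 202 CPM in IL1α-/- cells (1.43 ± 0.30, adjusted p = 0.0362). Dgat1, which makes triglycerides, was at 42.9 and 39.1 against 154 and 212 CPM (2.22 ± 0.32, adjusted p = 0.00807). Pde4d, a phosphodiesterase that breaks down cAMP, was at 27.3 and 33.9 against 118 and 130.4 CPM (2.01 ± 0.34, adjusted p = 0.016). The kinase gene Sik1 (1.93 ± 0.35), the transcription factor genes Runx2 (1.43 ± 0.29), Mxd1 (2.05 ± 0.32) and Tgif1 (1.73 ± 0.30), the protease gene Furin (1.58 ± 0.31) and the stress gene Gadd45b (1.24 ± 0.24) passed as well. Zc3hav1, an antiviral RNA-binding protein gene, was at 210.5 and 222 against 689 and 613 CPM (1.58 ± 0.23, adjusted p = 0.00766). Cdk5rap1 stood at 3.90 and 2.61 CPM in WT and 81.6 and 51.7 CPM in IL1α-/- cells (4.09 ± 0.76, adjusted p = 0.0241). In all of these the libraries of the 2 genotypes did not overlap, which held for 47.6% of all genes tested. Pde4d (adjusted p = 0.0877), the difference of Tgif1 by host genotype (0.0645) and that of Gadd45b by host genotype (0.167) did not pass without IL1α-/- replicate 2, and Cdk5rap1 did not without IL1α-/- replicate 1 (0.0535). Among cells with at least 2 Cd4 UMIs, Gadd45b (0.299), Sik1 (0.146), Tgif1 (0.0964), Runx2 (0.0929) and Furin (0.0907) did not pass, and Il21r passed in 10 of 14 alternatives.

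Among genes that fell, Rps15, a protein of the small ribosomal subunit, was the clearest: 2109 and 2468 CPM in WT against 862 and 852 CPM in IL1α-/- cells (-1.42 ± 0.19, adjusted p = 0.00645). Rpl5, Rpl12 and Rps12 fell by 1.13, 0.95 and 0.87 on the log2 scale. Of 82 ribosomal protein genes tested, 4 fell (4.88%, against 0.316% of all genes tested) and 0 rose. Lower were 58 of the 82, against 2424 of all 4751 genes tested, and the median was -0.39 against -0.02. Ribosomal protein genes have many near-identical pseudogenes, so their counts are uncertain. Eif3j2 had 13 and 21 UMIs in WT and 0 in both IL1α-/- libraries, at least 9.14-fold lower against a floor of 3 counts over the group, while its near copy Eif3j1 rose (2.32 ± 0.38, adjusted p = 0.015). Reads of this pair may be divided differently between the copies, so both are uncertain. Without IL1α-/- replicate 2, Eif3j2 (adjusted p = 0.102) and the differences of Rpl5 by host genotype (0.0587) and Rps12 (0.0645) did not pass, and Rpl12 did not without WT replicate 2 (0.0871). The overlapping mitochondrial genes mt-Atp6 (-0.98) and mt-Atp8 (1.499) also passed in opposite directions and cannot be separated with certainty.

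Ramp1, which turns the calcitonin receptor-like receptor into a receptor for the neuropeptide CGRP, was at 440.4 and 362 CPM in WT and 54.4 and 113 CPM in IL1α-/- cells. A Ramp1 UMI was found in 38.6% and 39.5% of WT cells and in 6.38% and 16% of IL1α-/- cells. The log2 difference was -2.08 ± 0.31 (adjusted p = 0.00914), and Ramp1 passed in all 14 alternatives. Ramp3, another chain of this receptor family, rose from 46.8 and 41.7 CPM to 109 and 177 CPM (1.80 ± 0.34, adjusted p = 0.0262), but did not pass without IL1α-/- replicate 2 (0.239). With all libraries the 2 chains moved in opposite directions. Cd81, a tetraspanin, was at 89.6 and 104 against 9.07 and 24.6 CPM (-2.20 ± 0.42, adjusted p = 0.0282), below the level in free RNA in every tumour.

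Naa10, the catalytic subunit of an N-terminal acetyltransferase, was at 136 and 117 CPM in WT and 45.4 and 32.0 CPM in IL1α-/- cells (-1.82 ± 0.35, adjusted p = 0.0288). Nrgn, a calmodulin-binding protein gene, was at 113 and 67.8 against 9.07 and 17.2 CPM (-2.48 ± 0.49, adjusted p = 0.0332). Neither Naa10 (0.190) nor Nrgn (0.0645) passed without IL1α-/- replicate 2. Capg, an actin-capping protein gene, was at 249 and 381 CPM in WT and 136 and 106 CPM in IL1α-/- cells (-1.45 ± 0.31, adjusted p = 0.0396). Pycard, the inflammasome adaptor ASC, was at 187 and 237 against 72.6 and 86.1 CPM (-1.38 ± 0.30, adjusted p = 0.049). Trbc1, a constant segment of the T cell receptor beta chain, was at 1212 and 1394 against 599 and 716 CPM (-0.97 ± 0.20, adjusted p = 0.0369). Its near-identical partner Trbc2 makes this value uncertain. Without IL1α-/- replicate 2, Capg (adjusted p = 0.216) and Pycard (0.119) lost the call, and so did the difference of Trbc1 by host genotype (0.0781, and 0.117 without IL1α-/- replicate 1). Axl, a receptor tyrosine kinase best known from myeloid cells, rested on 16, 14, 0 and 1 UMIs and did not pass without IL1α-/- replicate 2 (adjusted p = 0.163).

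**Figure D2:**
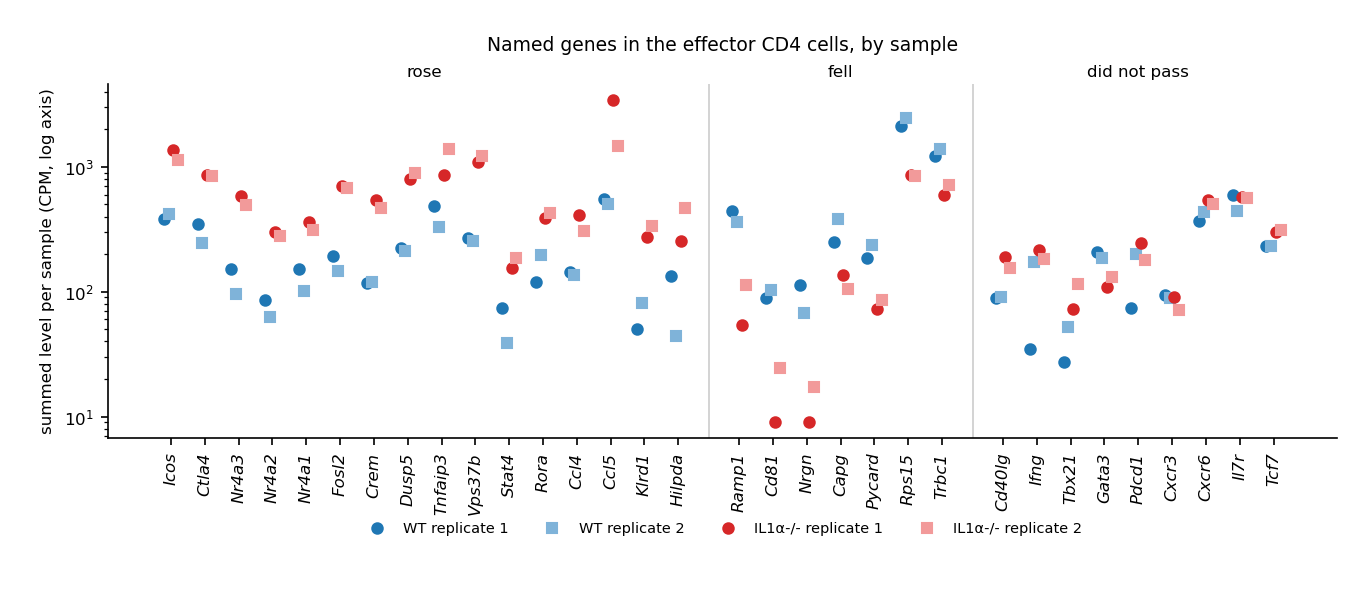
Summed level (CPM, log axis) of named genes in the effector CD4 cells of each of the 4 tumours, 1 point per library, with 16 genes that rose, 7 that fell and 9 that did not pass. For Icos the WT points are at 382 and 422 and the IL1α-/- points at 1369.7 and 1135, whereas for Pdcd1 the genotypes overlap. For Ifng the points of WT replicate 2 (175) and IL1α-/- replicate 2 (182) lie close together without overlap of the genotypes.

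Gene lists chosen for the pathways of these cells show how the members of each group stood. For all 4751 genes tested the share that rose was 1.14% and the share that fell 0.316%, with 2327 higher and a median of -0.02, and the lists are to be read against these. Of 20 costimulation and activation genes tested, 4 rose (Icos, Nr4a1, Nr4a2 and Nr4a3), 16 were higher and the median was 0.67. Of 12 Th1 genes, 2 rose (Stat4 and Ccl5), 10 were higher and the median was 0.91. In the list of 15 effector cytokines and TNF-family ligands, Ccl3, Ccl4 and Ccl5 rose, Xcl1 fell, and the median of 0.82 ranged from -0.46 to 0.89 over the alternatives. Klrd1 and Serpinb9 rose among 10 cytotoxic genes (median 0.71), and Ctla4 rose among 10 checkpoint receptors (median 0.34). Ctla4 rose and Capg fell among 14 genes of the regulatory list (median -0.24). None of 13 memory and quiescence genes passed (median 0.15), and none of 22 interferon response genes (median 0.17).

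The same background holds here: 1.14% of all genes tested rose, 0.316% fell, 2327 of 4751 were higher and the median was -0.02. Hif1a and Hilpda rose among 17 glycolysis and hypoxia genes (median 0.28). Of 18 T cell receptor and coreceptor genes, Trbc1 fell and the median was 0.07, so the receptor complex itself stood near the median of all genes. The 27 immediate early and tissue dissociation genes, which the 37-degree digestion can also induce, held Fosb, Dusp5 and Crem, 19 of the 27 were higher and the median was 0.37. The part of digestion in the activation genes was not tested.

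The interleukin 1 and NF-kB lists gave 1 gene that passed, Tnfaip3. Of 17 interleukin 1 family and receptor genes, 4 could be tested and none passed (median 0.43). Il1r1, the receptor through which interleukin 1α acts, gave 3, 1, 0 and 2 UMIs in the 484 cells, too few to test. Il18r1, a chain of the interleukin 18 receptor, was at 179 and 255 CPM in WT and 399 and 308 CPM in IL1α-/- cells and did not pass (0.65 ± 0.27, adjusted p = 0.263). Of 18 NF-kB genes, Tnfaip3 rose, 15 were higher and the median was 0.45, against -0.02 for all genes tested, of which 2327 of 4751 were higher. Nfkbia, a further NF-kB target and inhibitor, was at 511 and 367 against 472 and 625 CPM, with overlap (0.35 ± 0.24, adjusted p = 0.509). On chromosome 2, which carries Il1a, 5 of 353 tested genes passed (1.42%), about the share over all genes.

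**Figure D3:**
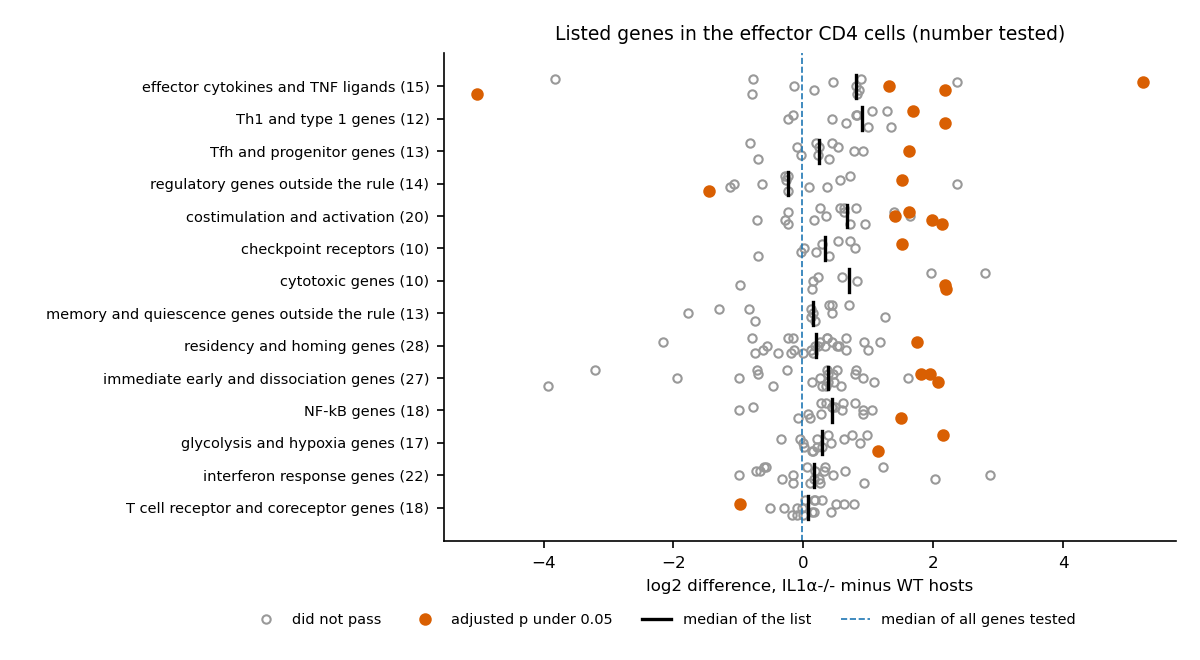
Log2 difference between IL1α-/- and WT hosts (horizontal axis) of each tested gene in 14 lists, 1 point per gene, with orange points at an adjusted p under 0.05, a black bar at the median of the list and a dashed line at the median of all genes tested (-0.02). The Th1 list (median 0.91) and the effector cytokine list (median 0.82) lie furthest to the right among the larger lists, with most of their points not passing.

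The same genotype comparison was run in 2 other T cell populations of these tumours, CD4 cells with type 2 transcripts (356 cells) and CD8 cells under the same limits (1548 cells), the latter chosen after the data were seen. These populations come from the same libraries, so their values are set side by side. WT replicate 1 contributed 91 of the CD8 cells and WT replicate 2 contributed 159, against 743 from IL1α-/- replicate 1 and 555 from IL1α-/- replicate 2. The WT side of each CD8 comparison thus rested on fewer cells. CD8 cells outnumbered effector CD4 cells in every library but WT replicate 1, and most clearly in the IL1α-/- libraries. In type 2 cells 112 of 4820 genes passed between hosts (2.32%), and in CD8 cells 99 of 7602 (1.3%). Nr4a3 differed by 2.14 in effector CD4, 1.70 in type 2 CD4 (adjusted p = 0.0101) and 1.33 in CD8 cells (0.0407), and Rps15 by -1.42, -1.30 (0.02) and -1.28 (0.0291). Vps37b differed by 2.15, 2.23 (0.00196) and 1.47, and Ramp1 by -2.08, -1.41 (0.0255) and -1.61. In CD8 cells neither Vps37b (adjusted p = 0.0833) nor Ramp1 (0.232) passed. For Icos the differences were 1.63, 0.61 (adjusted p = 0.371) and 2.69 (adjusted p = 0.00795). The test of the difference between populations did not pass for Icos against type 2 cells (0.97, adjusted p = 0.0789) or CD8 cells (-0.98, adjusted p = 0.0653).

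Tested directly, the genotype difference of effector CD4 cells departed from that of type 2 cells for 64 of 5468 genes (1.17%), and for 4 of 5065 (0.079%) without mixed cells: Ccl3, Gclc, Areg and Ccl1. With all cells the count was 20 without WT replicate 1, 116 without IL1α-/- replicate 1 and 31 without IL1α-/- replicate 2. Areg, an epidermal growth factor family ligand, was at 215 and 211 CPM in WT and 1908 and 969 CPM in IL1α-/- type 2 cells, and at 57.9 CPM or less in every library of effector CD4 cells (difference -3.45 ± 0.63, adjusted p = 0.000294). Against CD8 cells 27 of 6070 genes departed (0.445%), and 15 of 5846 (0.257%) without mixed cells, with 59, 59 and 49 genes when WT replicate 1, IL1α-/- replicate 1 or IL1α-/- replicate 2 was left out. Ctla4 was one of them: it differed by 1.52 in effector CD4 and 3.54 in CD8 cells (-1.96 ± 0.27, adjusted p = 0.000454). In CD8 cells Ctla4 was at 82.4 and 47.8 CPM in WT and 705 and 727 CPM in IL1α-/- tumours, so that the genotypes were further apart and the WT level lower than in effector CD4 cells.

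Ifng and Tcf7 separated the 2 lineages as well. Ifng was at 56.0 and 595 CPM in WT and 99.7 and 165 CPM in IL1α-/- CD8 cells, a difference of -1.32 against 0.82 in effector CD4 cells (2.10 ± 0.38, adjusted p = 0.0107). Tcf7 was at 208 and 134 CPM in WT CD8 cells and 29.5 and 77.9 CPM in IL1α-/- CD8 cells, a difference of -1.58 against 0.40 (1.97 ± 0.37, adjusted p = 0.0132). Klf3, a factor of quiescent lymphocytes, followed Tcf7 (2.20 ± 0.41, adjusted p = 0.011). Within CD8 cells alone the differences of Ifng (adjusted p = 0.424), Tcf7 (0.128) and Klf3 (0.133) did not pass, nor did those within effector CD4 cells, so that what passed was the difference between the 2 populations.

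**Figure D4:**
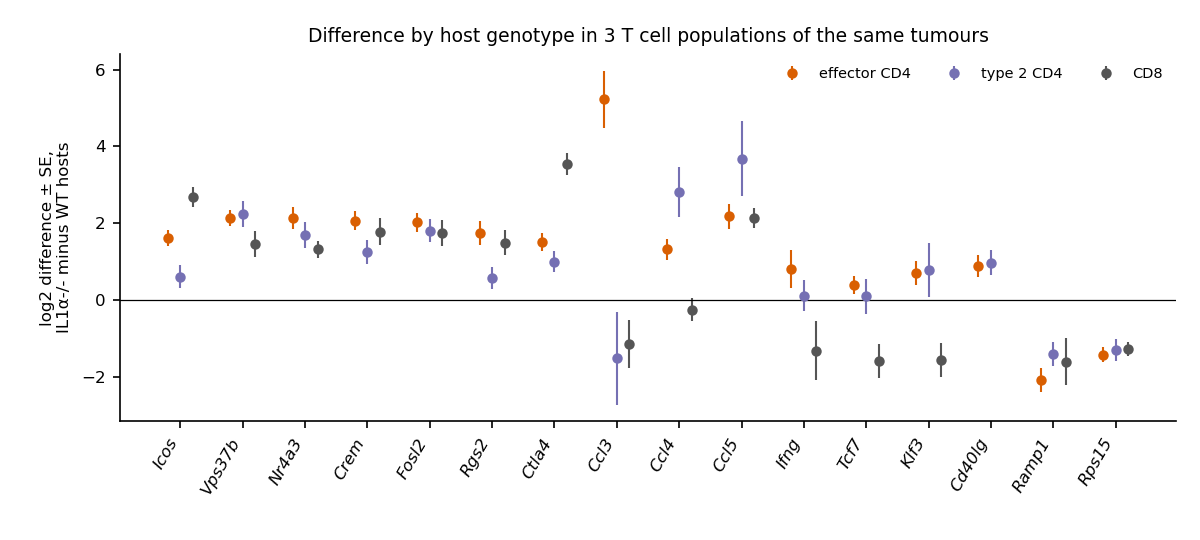
Log2 difference between IL1α-/- and WT hosts (vertical axis, points with SE bars) of 16 genes in effector CD4, type 2 CD4 and CD8 cells of the same 4 tumours. Vps37b, Nr4a3, Rps15 and Ramp1 lie on the same side of 0 in the 3 populations, with Vps37b and Ramp1 not passing in CD8 cells, while Ctla4 stands at 1.52 in effector CD4 and 3.54 in CD8 cells and Tcf7 at 0.40 and -1.58.

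Set beside other CD4 cells of the same tumours, effector CD4 cells were compared within libraries. The rule itself separated these populations, so the values describe what came with its genes, which were left out of the count. Against Foxp3+ cells, 183 of 4510 genes passed (4.06%), 94 higher (2.08%) and 89 lower (1.97%) in effector CD4 cells. Tcf7 averaged 313 CPM in effector CD4 and 8.08 CPM in Foxp3+ cells (4.35 ± 0.47, adjusted p = 2.93e-17), higher in 4 of 4 libraries. Cd40lg averaged 152 against 12.3 CPM (3.05 ± 0.52, adjusted p = 8.06e-07), also in 4 of 4. Tnfsf8, the gene of CD30 ligand, was higher (4.03 ± 0.62), as were Tbc1d4 (3.59 ± 0.43), Themis (2.84 ± 0.44), Bcl2 (2.65 ± 0.38), Itgb1 (1.90 ± 0.28), Cxcr6 (1.80 ± 0.30) and Ifng (1.66 ± 0.39). Of these, Ifng lost the call in at least 1 alternative (largest adjusted p 0.0973) and the others kept it.

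Of the regulatory list, 10 of 15 genes were lower in effector CD4 than in Foxp3+ cells (median -1.62, against 0.06 for all genes). Ikzf2, which encodes the regulatory factor Helios, averaged 257 against 1719.6 CPM (-2.83 ± 0.28, adjusted p = 5.82e-21), and Il2ra, the interleukin 2 receptor alpha chain, 219 against 1029 CPM (-2.30 ± 0.26, adjusted p = 1.67e-15). Tnfrsf9 (-2.40 ± 0.27), which encodes the costimulatory receptor 4-1BB, was lower too. Of 11 cytotoxic genes, Nkg7, Fasl, Ctsw, Klrd1 and Serpinb6b were higher in effector CD4 cells, and Gzmb (-2.93 ± 0.33) and Klrg1 (-3.16 ± 0.44) were lower (median 1.27). Each of the higher genes lost the call in at least 1 alternative, with a largest adjusted p from 0.0967 (Serpinb6b) to 0.624 (Nkg7). Gzmb and Klrg1 kept it. Klrd1 was lower in effector CD4 cells in WT replicate 1 (58.7 against 87.3 CPM). IL1α-/- replicate 1 had 4 Foxp3+ cells and the other libraries 19 to 66. The count of genes was 212 without that library and 100, 90 and 99 without WT replicate 1, WT replicate 2 and IL1α-/- replicate 2.

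Against type 2 cells, 282 of 5468 genes passed (5.16%), 91 higher (1.66%) and 191 lower (3.49%), and 110 passed without WT replicate 2. Higher in effector CD4 cells were Tcf7 (263 against 47.4 CPM, 2.39 ± 0.21, adjusted p = 3.1e-05) and S1pr1, the receptor that guides exit from tissue (202 against 31.8 CPM, 2.27 ± 0.26). So were Cxcr3, a Th1 chemokine receptor (83.6 against 15.8 CPM, 2.67 ± 0.35), Il18r1 (1.94 ± 0.26), Klf3 (2.01 ± 0.27) and Ms4a6b (1.57 ± 0.16). Of 15 memory and quiescence genes, 7 were higher and none lower (median 0.85), and of 12 Th1 genes 5 were higher (median 1.07, against 0.02 for all genes). Each of Tcf7, S1pr1, Cxcr3 and Il18r1 was higher in 4 of 4 libraries. Of 17 effector cytokines and TNF-family ligands, by contrast, 1 was higher in effector CD4 cells and 6 were lower (median -0.94). Of 19 NF-kB genes 0 were higher and 7 lower, and of 28 immediate early and dissociation genes 0 were higher and 8 lower.

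Gata3 averaged 153 CPM in effector CD4 and 653 CPM in type 2 cells (-2.05 ± 0.16, adjusted p = 1.91e-05). Pparg, a nuclear receptor of type 2 cells (-3.20 ± 0.30), and the leukotriene receptors Ltb4r1 (-3.41 ± 0.25) and Cysltr1 (-3.51 ± 0.28) were lower with it, in 4 of 4 libraries each. Cd40lg was lower in effector CD4 than in type 2 cells in all 4 libraries: 85.6, 88.2, 188 and 152 CPM against 190.0, 143, 427 and 277 CPM (-0.94 ± 0.18, adjusted p = 0.00824). The largest adjusted p of this difference over the alternatives was 0.0521. Cd40lg therefore stood between Foxp3+ and type 2 cells and was not highest in effector CD4 cells.

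Against naive-like cells, defined by more than 1 UMI of Lef1, Ccr7 and Dapl1, 34 of 2505 genes passed (1.36%), 24 higher (0.958%) and 10 lower (0.399%). Rgs1, linked to retention in tissue (2.12 ± 0.27), S100a4 (1.88 ± 0.25), Cxcr6 (2.68 ± 0.39) and Ccr2 (2.08 ± 0.40) were higher. Satb1, a chromatin organiser of T cells (-1.98 ± 0.31), and Klf3 (-1.44 ± 0.32) were lower. Klf3 lost the call in at least 1 alternative (largest adjusted p 0.078). Tcf7 did not pass (-0.91 ± 0.29, adjusted p = 0.136). The naive-like cells numbered 42, 16, 5 and 15, so this comparison had the least depth, and it called 19, 26, 59 and 16 genes without WT replicates 1 and 2 and IL1α-/- replicates 1 and 2 in turn.

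**Figure D5:**
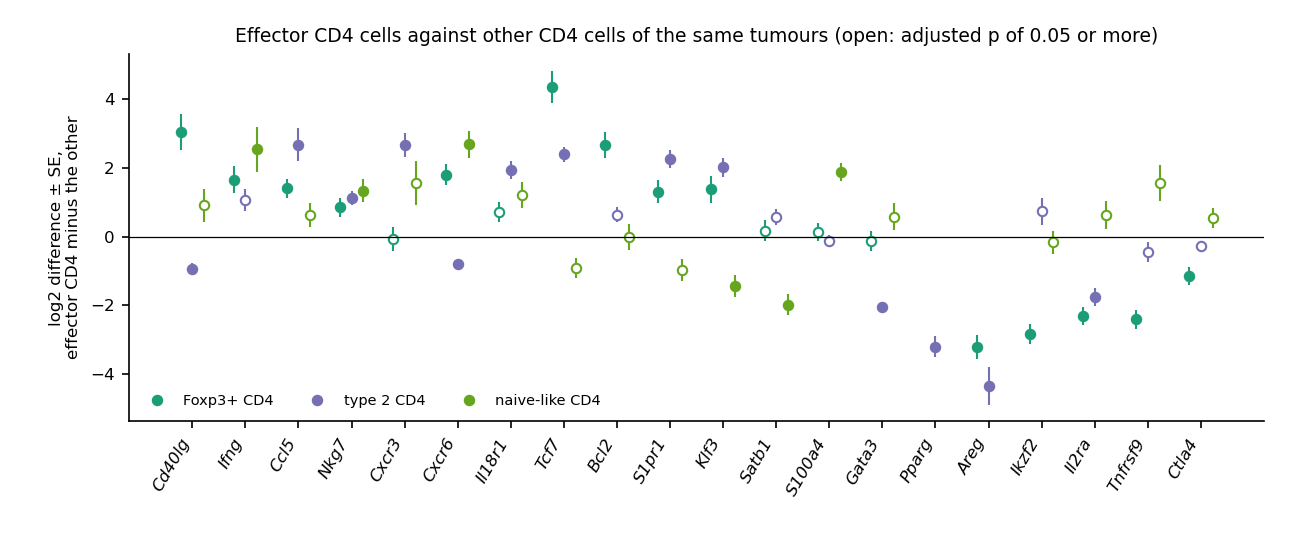
Log2 difference (vertical axis, points with SE bars) of 20 genes between effector CD4 cells and Foxp3+, type 2 or naive-like CD4 cells of the same tumours, with open points where the adjusted p was 0.05 or more. Tcf7 is higher in effector CD4 than in Foxp3+ (4.35) and type 2 cells (2.39), and Cd40lg is higher than in Foxp3+ (3.05) and lower than in type 2 cells (-0.94).

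Clustering the 484 cells alone gave 4 clusters of 158, 32, 158 and 136 cells, described by their leading genes without a test and without names. Cluster 2 led with Ikzf2 (1929 against 83.8 CPM in the other cells) and Il2ra (1268 against 88.0 CPM), genes of regulatory T cells, although no cell had a Foxp3 UMI. Cluster 4 led with S1pr1 (608 against 73.1 CPM), Tcf7 (689 against 133 CPM) and Il7r (1140 against 322 CPM), genes of recirculating and memory cells. Cluster 3 led with Hilpda (633 against 52.4 CPM) and Klrd1 (469 against 51.3 CPM). Cluster 1 led with Cd74, Xcl1, Hspa1a and Gsn, with Cd74 being a class II gene of antigen-presenting cells. Several of these leading genes differed between genotypes, so cluster sizes were not tested between hosts. Cluster 1 held 57 and 85 cells of WT replicates 1 and 2 and 9 and 7 of IL1α-/- replicates 1 and 2. In the same order cluster 2 held 13, 10, 5 and 4, cluster 3 held 7, 6, 46 and 99, and cluster 4 held 24, 13, 34 and 65. Clusters 1 and 3 were thus largely split by host, and whether they are subsets of cells was not tested. A finer resolution split the cells into 9 clusters. Cluster 3 of these led with Tyrobp (1023 against 24.1 CPM), H2-Ab1, Cd74 and Siglech (435 against 10.3 CPM), genes on the myeloid and dendritic marker lists. It held 32 cells: 3 and 1 of WT replicates 1 and 2, and 14 and 14 of IL1α-/- replicates 1 and 2. How many of its cells carried these transcripts was not counted.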

How the data were processed

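Single-cell RNA of 4 tumours was analysed from unfiltered UMI counts, deposited by the authors as 1 matrix per sample over mm10 and human features and made with Cell Ranger 3.1.0 per the submitters' processing notes. Each file listed 6794880 barcodes and held 23464120 and 29001333 UMIs in the WT and 6705368 and 15298532 in the IL1α-/- libraries. Barcodes with at least 500 mouse UMIs, 250 genes and at most 20% mitochondrial UMIs were kept: 4001, 4006, 3213 and 3335. Pairs of libraries shared 0 to 6 of these barcodes. Doublets were not removed in the main analysis, and Scrublet scores gave an alternative.

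Counts of the chosen cells were summed per tumour and tested with edgeR 4.0.16 (quasi-likelihood test, TMM, filterByExpr, Benjamini-Hochberg adjustment), also between populations with the library as a block. The genotype fit used the 4 sums alone. Shares were compared by exact permutation over 6 assignments. CPM are the deposited counts scaled to the fitted library size. Intervals and floors cover counting error only. Scripts were tested on simulated data. Named genes were, by genotype, the 12 of smallest p in each direction that passed with a log2 difference of at least 1 and no overlap, listed genes that passed and a fixed set with Cd40lg. Between populations they were the 8 of smallest p in each direction with at least 50 CPM, and of interactions 6. Further genes that passed, and list genes in the population comparisons, were named after their values were seen and the text names only part of the genes the rule took between populations. A result is not reported here. The cells and lists were chosen with earlier results of these data known. Gene positions are from GENCODE vM21. Alternatives covered depth, filters, scaling, DESeq2 1.42.0, doublets, mixed cells and each library left out. Clusters used scanpy 1.11.5 with 2000 variable genes, 20 components, 15 neighbours and a Leiden resolution of 0.5.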

Additional observations from a re-analysis of the deposited data

Results flagged for a closer look

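Several genes differed between hosts to another extent in effector CD4 cells than in type 2 CD4 cells, by a test of the difference between the 2 genotype effects, given here as log2 values. The effect was higher in effector CD4 cells for Ccl3 (6.68), Gclc (3.52), Calca (3.85), Rgs2 (1.26), Il7r (1.15) and Rgs1 (1.10). Gclc makes glutathione and Calca encodes the peptide CGRP. The effect was lower for Areg (-3.45) and the chemokine gene Ccl1 (-2.28). It was also lower for Igkc (-10.63), Dcn (-8.23), Col3a1 (-7.79), C3 (-7.70), Sparc (-6.28) and Col1a2 (-6.00), genes of plasma cells and fibroblasts. Without mixed cells Ccl3 (9.22), Gclc (3.72), Areg (-3.56) and Ccl1 (-2.57) passed again, while Rgs1 (adjusted p = 0.182), Rgs2 (0.256), Il7r (0.366) and Calca (0.256) did not. The fibroblast genes and Igkc were then too low to test. Igkc stood at 41714 CPM in the type 2 sum of IL1α-/- replicate 1, which held 21 cells.

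Against CD8 cells the effect was higher for Ccl3 (6.44), Klf3 (2.20), Ifng (2.10), Tcf7 (1.97), Ccl4 (1.58) and Satb1 (1.52). It was lower for Tff1 (-7.08), Dcn (-4.39), Col3a1 (-3.69), Col1a2 (-2.58), Gstp3 (-2.21), Ctla4 (-1.96), S100a4 (-1.73), Ly6a (-1.53), Lgals1 (-1.21) and Vim (-1.04). S100a4, Lgals1 and Vim, genes of activated and migrating lymphocytes, differed by 0.44, -0.15 and -0.80 in effector CD4 cells and by 2.22, 1.10 and 0.28 in CD8 cells. Without mixed cells all of these passed except Dcn, Col3a1 and Col1a2, which could not be tested. Ccl3 rested on 108 UMIs of IL1α-/- replicate 2 in effector CD4 cells, and Tff1 was at 158 CPM in WT replicate 2 and at 9.55 CPM or less in the other libraries.

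The matrices also carry human features, outside the main measurement. They received 1381 and 1514 UMIs in WT replicates 1 and 2 and 509 and 1037 in IL1α-/- replicates 1 and 2 of all the UMIs in each file. Their origin was not tested.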

How the results depend on the processing

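The count of 69 genes by genotype was 253 with a replicate block, 246 without a filter on low counts, 119 with doublet scores removed, 107 without cells carrying UMIs of other types and 248 without mixed cells, and ran from 68 to 250 with 1 library left out. DESeq2 called 64 genes, 35 of them among the 69, and the block kept all 69. Same-numbered tumours did not deviate together (r = 0.0521 over genes), so the pairing by number is not shown. For shares the block is no check, because the mean of the pair differences equals the difference of the group means by arithmetic. With the block the difference in the share of CD4 cells among all kept barcodes was therefore 1.40 points. The difference in the share of CD4 cells among all CD3+ Cd4+ cells was likewise 37.0 points. With 1 library left out they ran from 0.241 to 2.56 and from 28.3 to 45.7.

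Against Foxp3+ cells the count ran from 90 to 212 with 1 library left out. Against type 2 cells it was 465 without mixed cells and ran from 110 to 275. Against naive-like cells it was 85 without the filter and 22 at 1000 UMIs or more, and ran from 16 to 59. The genotype difference against type 2 cells was called for 4 genes without mixed cells, and for 20 to 116 with 1 library left out. Against CD8 cells it was called for 89 without the filter, 41 at 1000 UMIs or more and 15 without mixed cells, and for 30 to 59 with 1 library left out. Sub-clusters numbered 9 at resolution 1.

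Of the values of single genes, 2199 kept direction and side of the threshold, 309 lost and 22 gained the call, and 15 changed sign. By genotype these were Tnf, at -1.09 without IL1α-/- replicate 2 (-1.09 to 0.96 with 1 library left out), Cxcr3, at 0.0072 without IL1α-/- replicate 2 (-0.32 to 0.0072), Pdcd1 with 2 Cd4 UMIs or more (-0.0090), and Il7r by host genotype, at -0.22 when thinned and -0.0895 without WT replicate 2 (-0.0895 to 0.37). Against Foxp3+ cells, Col1a1 (-2.40 to 0.19) and Ccl4 (-1.51 to 0.25), which had passed, changed sign without WT replicate 2. Il7r (-0.32 to 0.026) and Cxcr3 (-0.47 to 0.079) did so without IL1α-/- replicate 2, Gata3 (-0.40 to 0.040) and Rora (-0.22 to 0.13) without WT replicate 1, and Rora also without the filter (0.053). Against type 2 cells, Rora (-0.65 to 0.0024) and Pdcd1 (-0.55 to 0.015) did so without WT replicate 1 and Icos (-0.11 to 0.38) without IL1α-/- replicate 1. The cause was not tested. The planned tests of the genotype difference against Foxp3+ and naive-like cells were not run, since some libraries held under 20 such cells. The CD8 comparison and the mixed-cell alternative were chosen after seeing the data. Cells of IL1α-/- replicate 1 were the shallowest, which limits genes of low level most there.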
